A study of Mus musculus with 24 samples.

Results

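Cortical and striatal inhibitory interneurons are usually told apart by a small set of neuropeptides and calcium-binding proteins, and 9 of these genes are described here: the peptide genes Vip, Sst, Npy, Cck, Crh and Cort, and the calcium-binding proteins Calb1 (calbindin), Calb2 (calretinin) and Pvalb (parvalbumin). They were taken by symbol, 9 of the 54235 features in the count tables, and all 9 were found. Their counts were followed over single cells, over cell classes, over training stage and over hemispheres. The cells came from mice trained in forelimb reaching. Motor cortex was taken from Fos-CreER::Ai9 mice and dorsal striatum from Arc-CreER::Ai9 mice, so region and driver line cannot be told apart. In both lines a tamoxifen-dependent recombinase is driven by an activity-regulated gene and switches on a fluorescent reporter. Every animal, controls included, received 4-hydroxytamoxifen, and tissue was taken 3 days after labelling. The early group had trained for 2 days, the late group for 8 days, and the control group had not trained. The labels give each pool 1 M and 1 F mouse, 2 in all, whose tissue was combined by hemisphere, so that each pool of mice gave 2 libraries. Hemispheres are contralateral or ipsilateral in trained pools and left or right in controls. There were 2 pools for each region and stage, 12 in all. Cells were not sorted by the reporter, and all values below are over cells with and without it.

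GABAergic interneurons release the inhibitory transmitter GABA together with peptides that act more slowly through G protein-coupled receptors. In the cortex, Sst and Vip mark largely separate populations: many Vip cells inhibit other interneurons, whereas Sst cells inhibit the dendrites of excitatory neurons. Pvalb marks fast-spiking cells that target the soma and axon. Npy is made by neurogliaform cells and by cells that also contain nitric oxide synthase. In the striatum, where most neurons are GABAergic spiny projection neurons, the best known local classes are fast-spiking Pvalb cells, cells with Sst, Npy and nitric oxide synthase, and cholinergic cells. Cck and Calb1 are also made by projection neurons, and Calb2 by young neurons.

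Calcium and cAMP signalling act on several of these genes through the cAMP response element, first described in the Sst promoter. Below are the 120 bases before the RefSeq start of the 4 genes whose level passed the test between hemispheres in at least 1 region. The sequences are from GRCm38.p6, read along the gene 5′ to 3′, with the element TGACGTCA and its core TGACG (or CGTCA on the other strand) in capitals.
Sst, chr16:23890845-23890964, minus strand: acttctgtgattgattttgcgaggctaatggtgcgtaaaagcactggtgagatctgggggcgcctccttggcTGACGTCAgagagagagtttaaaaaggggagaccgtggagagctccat
Vip, chr10:5639098-5639217, plus strand: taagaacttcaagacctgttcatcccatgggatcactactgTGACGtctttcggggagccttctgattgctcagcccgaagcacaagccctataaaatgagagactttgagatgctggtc
Cck, chr9:121495695-121495814, minus strand: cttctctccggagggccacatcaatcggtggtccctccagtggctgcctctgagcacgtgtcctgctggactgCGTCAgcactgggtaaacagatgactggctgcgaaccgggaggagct
Pvalb, chr15:78206401-78206520, minus strand: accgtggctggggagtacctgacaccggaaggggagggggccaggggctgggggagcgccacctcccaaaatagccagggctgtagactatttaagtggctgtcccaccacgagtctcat
The promoter table held 6 of the 9 genes, and motifs were searched on both strands of the 250 bases before each start. The full element was found in Sst, 48 bases before the start, and in 1.55% of 32851 promoters. The core alone, which the full element contains on both strands, was found in Vip, Sst, Cck and Cort and in 17.8% of promoters. The AP-1 motif TGACTCA, bound by Fos and Jun proteins, was in none of the 6 genes and in 4.46% of promoters. These matches describe letters in a window, and no measurement of binding was made here.

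The data were single-cell 3′ counts of unique molecular identifiers (UMIs, molecules counted once each), and levels are given as CPM, the UMIs of a gene per 1000000 UMIs of the cells named. Since only the 3′ end is counted, levels are compared for the same gene and not between genes. Counts were held for 23 of the 24 libraries, and the right hemisphere of striatal control replicate 1 was not analysed here. After filtering, 47985 motor cortex and 50627 striatal cells were kept. Libraries held 5.26e+06 to 3.05e+07 UMIs. No pair of libraries shared more than 148 barcodes, at most 1.54% of the smaller library. All 4 motor cortex control libraries went against their labelled mix of M and F mice: the share of cells with the female-specific RNA Xist was 0.0428% to 93.3% there and 27.3% to 51.8% in the other 19 libraries. One of these, the left hemisphere of control replicate 1, held only 541 barcodes and 25 interneurons. The label interneuron was given to clusters from 12 marker genes such as Gad1, Gad2 and Slc32a1, with the 9 genes themselves left out of the clustering. This gave 4442 GABAergic interneuron-like cells in motor cortex (9.26% of cells, median 6426.5 UMIs) and 1980 in striatum (3.91%, median 6867.5 UMIs). All 12 markers were above 0 in the interneurons of every library. Of the microglial markers, at least 3 of 7 were above 0 in each library, with a summed level of 9.96 to 94.0 CPM in motor cortex and 26.9 to 103 CPM in striatum, against 5290 to 8409 and 3104 to 6123 CPM for the interneuron markers. Markers of other classes were also present. Those of spiny projection neurons summed to 595 to 1039 CPM in motor cortex and 615 to 873 CPM in striatum. Their list includes Penk, which also leads an interneuron cluster of motor cortex described below. Penk alone was at 143 to 528 CPM in motor cortex and 41.6 to 171 CPM in striatal interneurons. Markers of neuroblasts or progenitors summed to 534 to 671 and 663 to 853 CPM. Glutamatergic neuron markers summed to 221 to 423 and 59.1 to 169 CPM, and astrocyte markers to 173 to 311 and 124 to 230 CPM. Oligodendrocyte markers summed to 16.6 to 90.3 and 43.4 to 76.7 CPM, and endothelial markers to 3.32 to 28.8 and 20.4 to 57.3 CPM. The part of RNA from other cells in the results below was not tested.

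The family name held for 7 of the 9 genes in motor cortex and for 5 in striatum, when it is read as most UMIs lying in interneuron-like cells. Vip, which acts on its receptors to raise cAMP, had 98.9% of its UMIs in interneuron-like cells in motor cortex and 99.1% in striatum. Sst, an inhibitory peptide, had 98.6% and 97.9% there, and Npy had 97.1% and 97.3%. Cort, a close relative of Sst, had 97.8% in motor cortex and 76.3% in striatum, where only 245 UMIs were counted over all cells. Pvalb, a slow calcium buffer, had 90.8% and 87.8%. Crh, the stress peptide, was an interneuron gene in motor cortex (95.8%), but in striatum 71.1% of its 571 UMIs lay in spiny projection neuron-like cells and 27.7% in interneurons.

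Cck lay mostly in glutamatergic neuron-like cells, and Calb1 in glutamatergic or spiny projection neuron-like cells. Of the Cck UMIs in motor cortex, 84.6% lay in glutamatergic neuron-like cells and 13.8% in interneurons. In striatum, 220 glutamatergic neuron-like cells, 0.435% of the cells, held 64.8% of its UMIs, and interneurons held 6.01%. Where in the dissected tissue these 220 cells lay was not tested. Calb1, a fast calcium buffer, had 86.2% of its UMIs in glutamatergic neuron-like cells of motor cortex and 89.5% in spiny projection neuron-like cells of striatum. Interneurons held 12.4% and 1.98% of Calb1. Striatal cholinergic interneuron-like cells had 270 CPM of Calb1, against 72.2 CPM in GABAergic ones.

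Calb2 was spread over unlike classes. Interneurons held 61.5% of its UMIs in motor cortex and 15.3% in striatum. In motor cortex, 178 neuroblast- or progenitor-like cells reached 12151 CPM and held 24.5%, and oligodendrocyte precursor-like cells held 11.4%. In striatum, neuroblast- or progenitor-like cells held 49.0%, oligodendrocyte precursor-like cells 16.3% and spiny projection neuron-like cells 15.5%. At least 1 Calb2 UMI was seen in 21.7% of oligodendrocyte precursor-like cells of motor cortex and 18.7% of those of striatum, against 0.373% and 0.200% of microglia-like cells at a similar depth (medians of 2002 and 2143 against 1821 and 1823.5 UMIs).

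**Figure D1:**
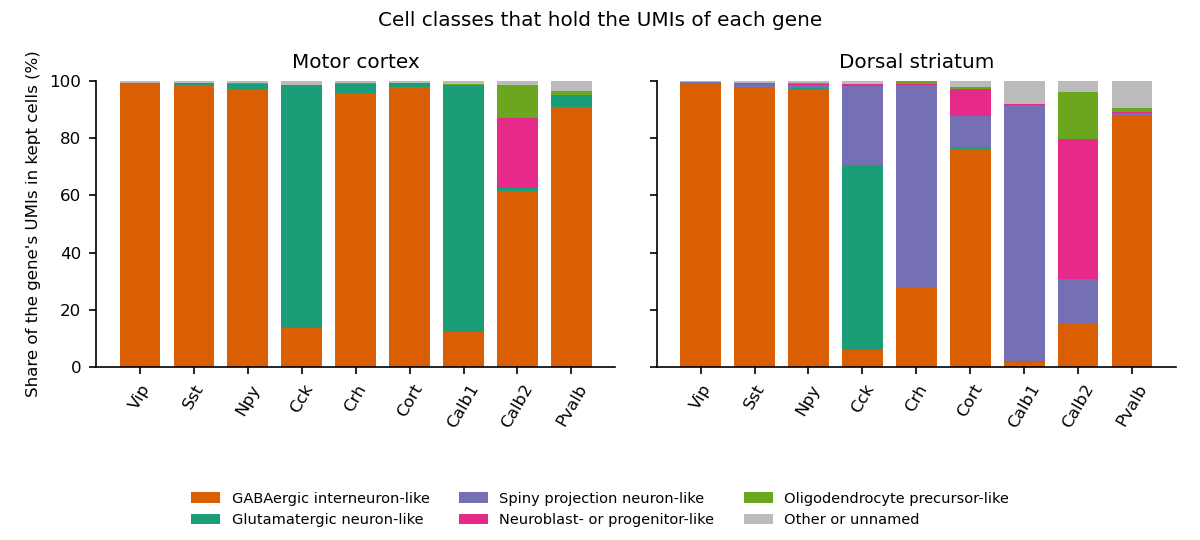
Share of each gene's UMIs (%, vertical axis) held by each class of kept cells, in motor cortex and in dorsal striatum; a bar adds up to 100%. Vip, Sst and Npy lie almost wholly in GABAergic interneuron-like cells in both regions. Cck lies mostly in glutamatergic neuron-like cells, Calb1 in glutamatergic or spiny projection neuron-like cells, and Calb2 is divided over 3 classes or more.

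Among motor cortex interneurons the peptides were concentrated in few cells. For Sst, 95 cells (2.14%) held 50% of the UMIs, and the highest single cell had 1266. For Vip this took 370 cells (8.33%), for Npy 242, for Cck 170, for Crh 277 and for Cort 67. Of the calcium-binding proteins, 44 cells (0.99%) held 50% of Pvalb, 68 of Calb1 and 173 of Calb2. A cell is called positive below when it held at least 3 UMIs of a gene. Positive cells made up 39.2% of the kept motor cortex interneurons for Vip, 12.5% for Sst, 48.5% for Npy and 35.5% for Cck. They made up 23.9% for Crh, 8.98% for Cort, 6.21% for Calb1, 16.1% for Calb2 and 5.27% for Pvalb. Whether dissociation recovered all types of interneuron alike was not tested.

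The clusters of motor cortex interneurons, made without these genes, divided them as follows. Vip was highest in a cluster led by Tac2, Htr3a and Cxcl14 (11720 CPM) and in one led by Penk, Pthlh and Dlx1 (8547 CPM), and was at 3.77 CPM in cells led by Crhbp, Nos1 and Chodl. Those 134 Nos1 and Chodl cells had the highest Sst (22390 CPM), Npy (24460 CPM) and Cort (980.9 CPM). A cluster led by Tac1, Rbp4 and Pdyn also held Sst (8874 CPM) with most of the Pvalb (970.8 CPM) and Calb1 (384.9 CPM). Npy without Sst was found in a cluster led by Tnnt1, Ndnf and Kit (16210 CPM against 6.90 CPM of Sst). Cck and Crh were highest in the Tac2 cluster, with 5966 and 891.7 CPM, and Calb2 in the Penk cluster, with 736.5 CPM.

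A second round of clustering within motor cortex interneurons split these further. Vip and Crh were both highest in 235 Htr3a bipolar lineage-like cells led by Crispld2, with 20450 and 2044 CPM. Cells led by Igfbp6 had less Vip (1943 and 1467 CPM in 2 subclusters) and the highest Calb2 (1464 and 1238 CPM). A subcluster of 495 cells led by Ostf1, Slc18a3 and Rspo1, which scored highest for the cholinergic markers Chat and Slc5a7, had 13680 CPM of Vip, 877.3 CPM of Calb2 and 91.2 CPM of Cck. Cck peaked in 3 Basket Sncg lineage-like subclusters at 8188 to 9566 CPM, with Vip at 7073, 2421 and 1.74 CPM in them. Pvalb reached 3108 CPM in 172 fast-spiking lineage-like cells led by Tac1 and Syt2. Calb1 was highest in 2 Grin3a and Chodl lineage-like subclusters in which Pdyn was among the leading genes (815 and 624 CPM), where Sst was at 17360 and 12200 CPM. Cort was highest, at 1412 CPM, in an unnamed subcluster led by Th and Spp1. One unnamed subcluster of 158 cells was led by the microglial and immune genes C1qc and Ccl3, and its Npy level was 18050 CPM.

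Striatal interneurons formed 3 clusters. In 883 cells led by Nos1 and Hhip, Sst was at 36970 CPM and Npy at 20390 CPM, with Calb1 at 111 CPM and Cort at 12.5 CPM. In 557 cells led by Pthlh and Cox6a2, Pvalb was at 511.6 CPM and Sst at 13.2 CPM. In 540 cells led by Trh and Th, Npy was at 1375 CPM and Vip at 445.6 CPM. Within that last cluster, 46 cells led by Lamp5 formed a subcluster that was named neurogliaform lineage-like as a whole. Of the striatal interneuron subclusters it had the highest Vip (3299 CPM), Cck (953.6 CPM) and Crh (130 CPM). Its Npy was at 9390 CPM and its Cort at 114 CPM, and its Vip and Npy lay in different cells (below). By count, 60.1% of the Crh UMIs of striatal interneurons lay in the larger Pthlh cluster, and 48.7% of the Cort and 97.0% of the Npy UMIs in the Nos1 cluster. The Th and Trh subcluster of 246 cells had 3.14 CPM of Vip and 20.4 CPM of Npy.

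Striatal Vip was a matter of 12 cells. In all, 1458 Vip UMIs were counted in 20 of 1980 interneurons, and the highest cell held 289 of them. The 12 cells with at least 10 UMIs held 98.6% of the total, came from 7 of 11 libraries and 6 pools, and all lay in the Lamp5 subcluster. None of these 12 was positive for Sst, Npy, Cort, Calb1 or Pvalb, while 5 were positive for Crh, 5 for Calb2 and 2 for Cck. They held 2 Npy UMIs, so the Npy of that subcluster lay in its other cells. The name neurogliaform lineage-like therefore does not describe these 12. Cck was equally sparse, with 442 UMIs in 26 interneurons, and 2 cells held 50% of them.

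The genes occurred in particular combinations within motor cortex interneurons. Of 1063 Crh-positive cells, 82.2% were Vip-positive (25.6% of Crh-negative cells), and 50.2% of Vip-positive cells were Crh-positive (6.99% of Vip-negative cells). Of Sst-positive cells, 69.6% were positive for Npy and 0.180% for Vip (45.5% and 44.8% of Sst-negative cells). Of Calb1-positive cells, 80.8% were positive for Sst (7.99% of Calb1-negative cells). Cort-positive cells were positive for Npy in 86.2% and for Sst in 55.1% of cases (44.8% and 8.31% of Cort-negative cells). Calb2-positive cells were positive for Vip in 66.0% (34.0% of Calb2-negative cells). Of 234 Pvalb-positive cells, 7.7% were Sst-positive and 51.3% Cck-positive (12.8% and 34.6% of Pvalb-negative cells). Cells were not thinned here. Sst-, Pvalb-, Calb1- and Cort-positive cells had medians of 8513 to 10975 UMIs, and Vip-, Calb2- and Crh-positive cells of 5294 to 5932. The part of depth was not tested. The commonest sets were Npy alone (672 cells), Npy with Cck (501) and Vip alone (390), and 153 cells (3.44%) were positive for none of the 9 genes.

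In striatum, Sst and Npy nearly coincided: 99.4% of 900 Sst-positive cells were Npy-positive, and 97.5% of 918 Npy-positive cells were Sst-positive. Sst with Npy was the commonest set (771 cells, 38.9%), and 101 cells were also Calb1-positive. None of the 168 Pvalb-positive cells was Sst-positive. A larger share than in cortex, 814 cells (41.1%), was positive for none of the 9 genes. That difference in share was not tested.

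**Figure D2:**
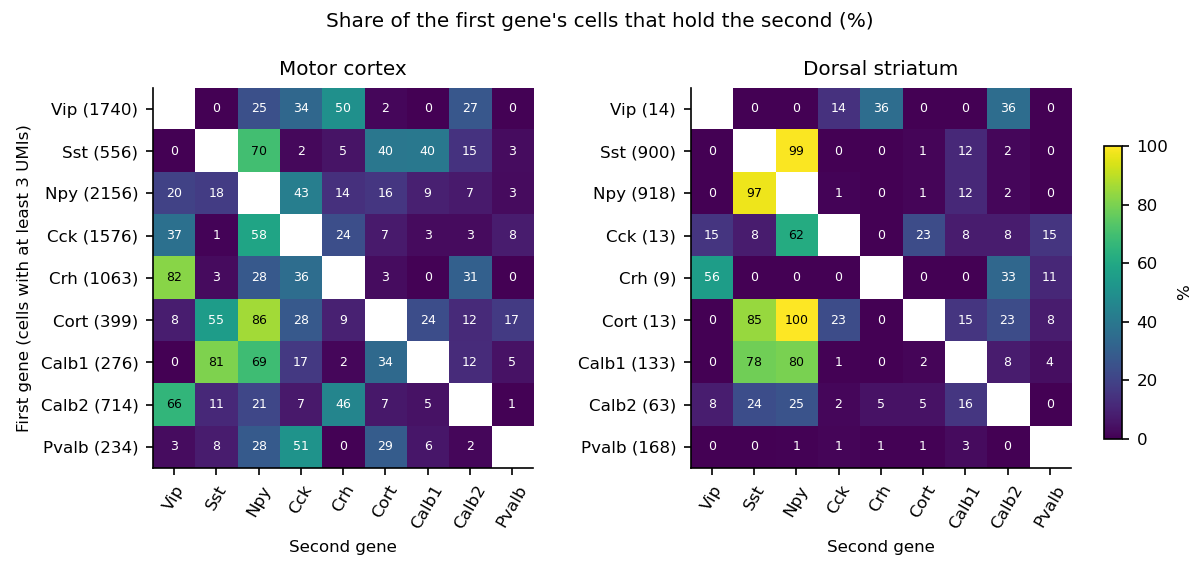
For each pair of genes, the share (%) of interneuron-like cells positive for the first gene (rows, number of positive cells in brackets) that were also positive for the second (columns), with positive meaning at least 3 UMIs. In dorsal striatum Sst and Npy coincide in 97.5% to 99.4% of cells, while in motor cortex 17.9% of Npy-positive cells are Sst-positive.

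Striatal interneurons carried more Sst and Npy than those of motor cortex, and less Vip, Cck, Crh, Cort and Calb2, while Calb1 and Pvalb did not pass the test. Over 6 pools each, Sst was at 18231 ± 4072 CPM (SD) in striatum and 2807 ± 398 CPM in motor cortex, and no library of one region reached the range of the other. The fitted log2 difference was 2.80 (SE 0.13, edgeR quasi-likelihood test, adjusted p 8.53e-12). Npy was at 10258 ± 1826 against 6154 ± 711 CPM (log2 difference 0.84, SE 0.11, adjusted p 8.09e-06), and all 11 striatal libraries (7513 to 13230 CPM) lay above all 12 of motor cortex (4523 to 7205 CPM). Vip was at 91.9 ± 75.5 against 4056 ± 1468 CPM, a difference of -5.61 (SE 0.42, adjusted p 6.57e-09). Cck was at 28.6 ± 39.2 against 1710 ± 296 CPM, with a difference of -5.93 (SE 0.57, adjusted p 1.67e-07). These lower peptides did not overlap between regions in any library.

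The remaining peptides followed. Crh fell from 320 ± 49.3 CPM in motor cortex to 10.7 ± 5.42 CPM in striatum, a log2 difference of -4.81 (SE 0.21). Cort was at 193 ± 70.3 and 12.6 ± 5.24 CPM, a difference of -3.82 (SE 0.16), and Calb2 at 238 ± 33.7 and 39.7 ± 11.3 CPM, a difference of -2.48 (SE 0.16). Calb1 was at 85.8 ± 17.6 and 72.6 ± 23.0 CPM (difference -0.14, SE 0.14, adjusted p 0.451) and Pvalb at 208 ± 174 and 161 ± 22.6 CPM (difference 0.05, SE 0.29, adjusted p 0.923). The libraries of the regions overlapped for both. In all, 7 of the 9 genes were called (2 higher and 5 lower in striatum) where 33.1% of all 13173 genes tested were called, 17.6% higher and 15.6% lower. The median log2 difference was -2.48 over the 9 genes and 0.01 over all genes. With both motor cortex control pools left out, an alternative chosen after seeing the data, the same 7 were on the same side of the threshold, with log2 differences of 2.78 for Sst, 0.88 for Npy, -6.58 for Vip and -6.06 for Cck. Sums over cells of this kind cannot tell fewer cells of a type from less RNA per cell.

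**Figure D3:**
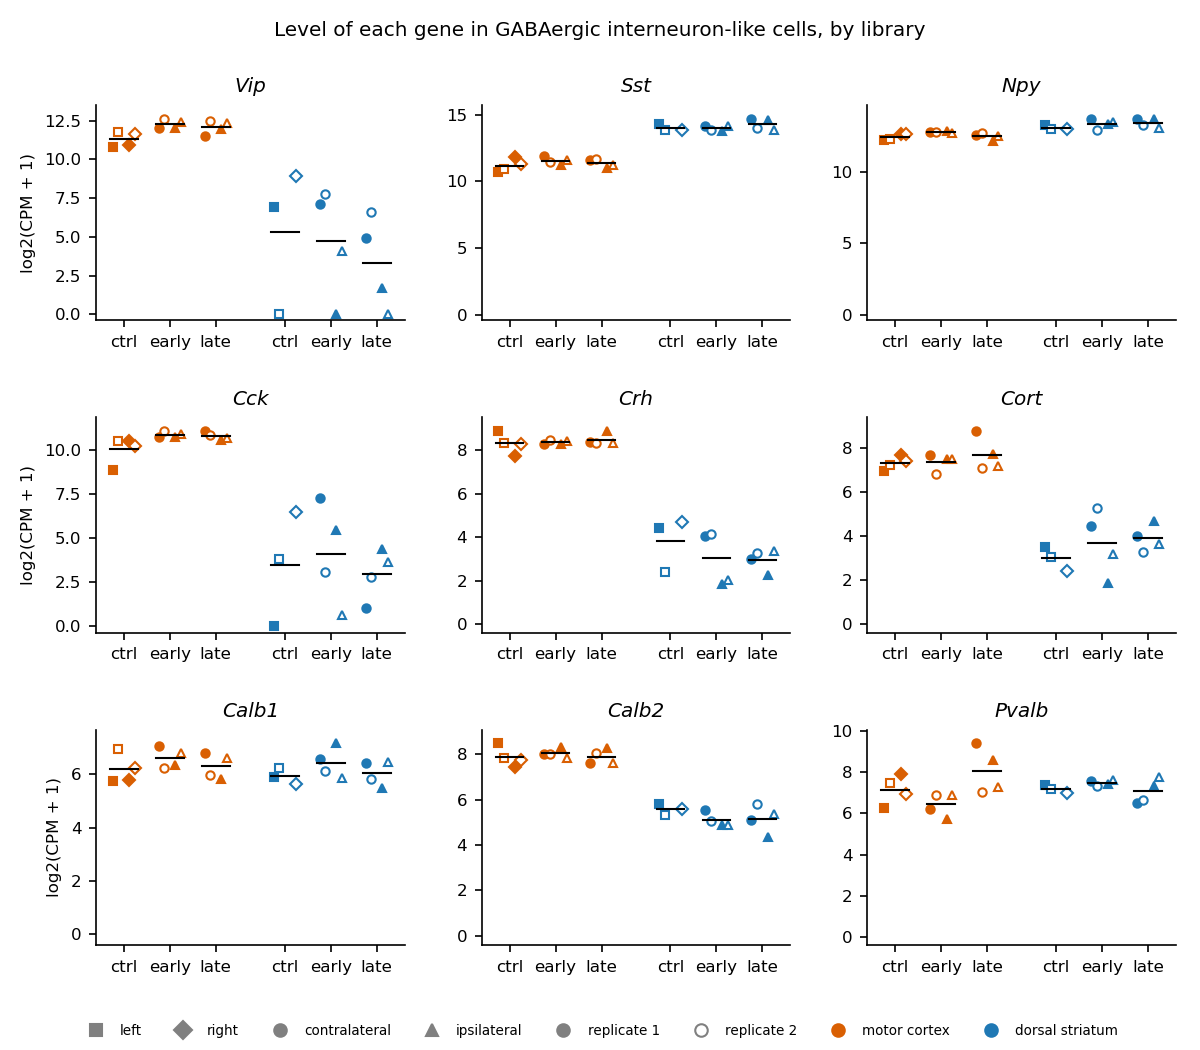
Level of each gene in GABAergic interneuron-like cells of each library, as log2(CPM + 1), by stage (ctrl, control) in motor cortex (orange) and dorsal striatum (blue); symbols give the hemisphere, open symbols replicate 2, and black lines the mean of the libraries. Sst and Npy lie higher in striatum, 5 genes lie lower there, and striatal Vip ranges from 0 to 494 CPM among libraries.

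Shares of cells, after thinning every cell to 1000 UMIs, gave 6 of 9 genes past an exact two-sided permutation test over 6 against 6 pools, for which the smallest p possible is 0.00216. All 6 had that p, which became 0.00325 after adjustment over the 9 genes. At least 1 Sst UMI was seen in 45.7% ± 5.11 of striatal interneurons and 12.9% ± 1.26 of those in motor cortex (SD, n = 6 pools; unthinned 50.1% and 15.8%). Vip was seen in 0.690% ± 0.309 against 38.3% ± 2.46 (unthinned 1.11% and 42.6%), and Crh in 0.848% against 21.3% (unthinned 4.54% and 33.4%). Cck, Cort and Calb2 were also lower in striatum (0.714% against 32.1%, 0.702% against 6.85%, and 3.23% against 14.3%; unthinned 1.45% and 49.1%, 5.02% and 21.4%, and 8.64% and 23.6%). Npy did not pass in share (46.3% against 46.0%, difference 0.297 percentage points, exact permutation adjusted p 0.905), although its CPM was higher. Calb1 (5.50% against 4.35%) and Pvalb (6.61% against 4.97%) did not pass either. These 3 genes depended on the thinning. Without it all 9 passed: Npy was lower in striatum (51.5% against 57.2%, adjusted p 0.0303), and Calb1 (20.3% against 10.3%, adjusted p 0.00278) and Pvalb (15.8% against 8.68%, adjusted p 0.00974) were higher by the same exact permutation test. With at least 2 UMIs required in the thinned cell, Npy was higher in striatum (44.6% against 38.7%, exact permutation adjusted p 0.0445). Microglia-like cells, thinned in the same way, had a Vip UMI in 0.0401% and 0.815% of striatal and motor cortex cells, and an Sst UMI in 4.17% and 0.953%. The regions are confounded with driver line, and kit class A alone, with 2 pools a region, cannot reach the threshold.

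Receptors and peptide-handling genes were taken from lists. Of 16 genes for receptors and for the Crh-binding protein, 7 were tested, of which 1 was called higher and 6 lower in striatal interneurons (median log2 difference -0.90, against 0.01 for all genes, of which 17.6% were called higher and 15.6% lower). Npy2r, the presynaptic Npy receptor, was higher (1.26, SE 0.09, edgeR adjusted p 2.04e-09), with 63.0 to 116 CPM in striatal and 19.9 to 47.4 CPM in motor cortex libraries. Npy1r was lower (-3.85, SE 0.18, adjusted p 1.53e-11), with a median of 3.54 against 66.2 CPM, and so was Npy5r (-2.71, SE 0.33). Crhbp, which binds and buffers Crh, and Adcyap1r1, a receptor of the Vip family, were lower by smaller amounts (-0.83 and -0.58).

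Of 13 genes of peptide processing and dense-core vesicles, all tested, 7 were higher and 1 lower in striatal interneurons (median 0.32), where 17.6% of all genes were called higher and 15.6% lower. Scg2, a granin of dense-core vesicles, differed by 1.56 (SE 0.09, edgeR adjusted p 1.09e-10), with 1175 to 2405 CPM against 404 to 828 CPM. Pam, which amidates the C-terminus of many peptides, differed by 1.43 (SE 0.14), and Cadps2, a priming factor of dense-core vesicles, by -1.37 (SE 0.13). Pcsk1n, an inhibitor of a prohormone convertase, did not pass (-0.04). Of 11 other neuropeptide genes, 8 were tested, 3 were higher and 3 lower (median -0.20), against the same 17.6% and 15.6%. Trh, thyrotropin-releasing hormone, was at 32.5 to 146 CPM in striatal and 0 to 1.93 CPM in motor cortex libraries, a fitted difference of 7.09 (SE 0.20). Pnoc, the nociceptin precursor, and Tac2, neurokinin B, were lower (-3.30 and -5.63), as was Penk, the enkephalin precursor (-1.31).

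Training stage did not change any of the 9 genes in motor cortex interneurons at an adjusted p under 0.05, where 0.0% of 14207 genes were called in each of the 3 comparisons (edgeR, 6 pools, kit class as covariate). Before adjustment, 717, 617 and 229 genes had a p under 0.05, and DESeq2 called 0 genes as well. Vip was at 1959 and 3387 CPM in the 2 control pools, 4150 and 5913 CPM in early pools and 3430 and 5500 CPM in late pools. All 4 trained pools thus lay above both controls, with log2 differences of 0.67 (SE 0.19) for early and 0.80 (SE 0.17) for late, adjusted p 0.936 and 1.00. Cck was at 1365 and 1360 CPM in controls, 1756 and 2099 in early and 1909 and 1768 in late pools (differences of 0.61, SE 0.16, and 0.48, SE 0.14). These too did not overlap with controls and did not pass. With 1 pool left out its group has a single pool, which is assumed to vary like the other groups, and then 0 to 6 calls were made on the 9 genes over the 3 comparisons. The same fits made 1 to 452 calls over all genes, against 0 with all pools. Vip was called in late against control without late replicate 1, control replicate 1, control replicate 2 or late replicate 2 in turn (0.72 to 0.88), and in early against control without control replicate 1 or late replicate 2 (0.64 in both). The controls of this region are the libraries whose Xist shares went against their labels, and what part that has in these values was not tested.

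Pvalb varied between motor cortex pools of one group. It was at 548 CPM in late replicate 1, with 685 and 393 CPM in its 2 hemispheres, and at 144 CPM in late replicate 2, against 223 and 150 CPM in controls and 61.6 and 120 CPM in early pools. Pvalb-positive cells made up 9.18% of interneurons in late replicate 1 and 3.65% to 5.67% in the other 5 motor cortex pools. Without late replicate 2, late against control was 1.36 for Pvalb, but the late group is then the 548 CPM pool alone. Without late replicate 1 the early difference was -0.69, in a fit whose late group is also a single pool. Sst, Npy, Crh, Cort, Calb1 and Calb2 differed from control by 0.29 to 0.45 on the log2 scale in early pools and by 0.00 to 0.42 in late pools, with no adjusted p under 0.936. These values are adjusted for kit class. Cort was at 157 and 196 CPM in control and 148 and 189 CPM in early pools, so that its group means lay the other way. In late pools the means of Sst (2661 against 2786 CPM in control) and Npy (5654 against 5831 CPM) also lay below control. Within the 2 pairs of pools that share a flow-cell label, trained minus control was 0.81 (late) and 0.29 (early) for Vip, 0.48 and 0.37 for Cck, and 1.29 and -1.27 for Pvalb, on the log2(CPM + 1) scale.

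In striatal interneurons, Vip was the only one of the 9 genes called between stages. It was called lower in early than in control pools, where 0.162% of 12341 genes were called (0.154% lower), and lower in late pools, where 0.0243% were called. Late against early, 0.0081% of genes were called and none of the 9. Control pools had 119 and 228 CPM of Vip, early pools 71.1 and 75.1 CPM and late pools 13.7 and 43.7 CPM, with no overlap of control with trained pools. The control pool at 119 CPM is a left library alone, with Vip UMIs in 2 cells, whereas the other pools sum both hemispheres. The log2 differences were -1.76 (SE 0.18, edgeR adjusted p 1.86e-05) and -2.64 (SE 0.19, adjusted p 6.66e-08). These rest on 5, 4 and 3 cells with at least 10 Vip UMIs in control, early and late pools. By library, control replicate 2 had 703 Vip UMIs in its right and 0 in its left hemisphere, and early replicate 1 had 168 contralateral and 0 ipsilateral.

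The call on striatal Vip depended on the fit. Without the kit covariate the differences were -1.32 and -2.59 (adjusted p 0.719 and 1.00), and with the replicate number as a block in its place -1.24 and -2.65 (adjusted p 0.627 and 0.282). With contralateral and left libraries only they turned to 2.35 and 0.52 (adjusted p 0.476 and 0.971). With ipsilateral and right libraries only they were -5.66 and -12.48 (edgeR adjusted p 2.22e-69 and 2.03e-51), where the only control library is the right one with 703 Vip UMIs and all genes together had 148 calls. Limma on cell means called neither (adjusted p 0.662 and 0.679) and made 8 calls over all genes. The fits without the kit covariate and with the replicate block made 0 calls over all genes, against 24 in the reported fit. DESeq2 called the late difference (-2.68) and gave no adjusted p for the early one, and both were called with each of the 6 pools left out in turn, in fits where 1 group is a single pool assumed to vary like the others, and which made 105 to 370 calls over all genes, against 24 with all pools. The stage terms of the regions differed for Vip by -2.22 (SE 0.29, adjusted p 0.0204) for early and by -3.44 (SE 0.31, adjusted p 1.54e-04) for late against control, in fits that called 0.0147% and 0.00736% of genes. Of the other genes, Cort was higher in early pools by 1.36 (SE 0.36, adjusted p 0.214) and Crh lower by -0.98 (SE 0.37) and -1.19 (SE 0.34) without passing. Cort was at 0.91 (SE 0.32) in late pools. Calb2 was at -0.66 (SE 0.26, edgeR adjusted p 0.596) and -0.43 (SE 0.23), and Cck at 0.44 (SE 0.80) and -0.98 (SE 1.00). Sst, Npy, Calb1 and Pvalb stayed between -0.02 and 0.51.

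Cck and Calb1 were also tested in motor cortex glutamatergic neuron-like cells, and Calb1 and Calb2 in striatal projection neuron- and neuroblast-like cells, and none passed. The 220 striatal glutamatergic neuron-like cells, which held most striatal Cck, were not tested. In motor cortex glutamatergic neuron-like cells (17710 genes, 0.0% called in each comparison, with 297, 848 and 226 genes at an unadjusted p under 0.05), Cck lay between 2045 and 3080 CPM in the 6 pools. Calb1 there was at 206 and 132 CPM in controls, 137 and 168 CPM in early and 136 and 109 CPM in late pools, a late difference of -0.41 (SE 0.14, adjusted p 0.851). In striatal spiny projection neuron-like cells 0.00582%, 0.0% and 0.0% of 17190 genes were called, and none of the 6 members tested. Calb1 lay between 448 and 511 CPM there. In striatal neuroblast- or progenitor-like cells 0.0146%, 0.0292% and 0.00729% of 13718 genes were called, and none of the 5 members tested. Calb2 there ranged from 5.40 CPM in late replicate 1 to 150 CPM in early replicate 2 (late against control -1.84, SE 0.52, adjusted p 0.312), and the 2 control pools were at 14.6 and 134 CPM. DESeq2 called none of these members. Leaving out single striatal pools gave 0 to 7 calls on the members in these classes, in fits that made 21 to 1279 calls over all genes, against 8 with all pools. The fits with 6 or 7 member calls made 485 to 1279. In these fits Calb2 in neuroblast- or progenitor-like cells was called lower in late pools (-1.93 to -1.83) without late replicate 1, control replicate 1, early replicate 1 or early replicate 2.

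Between hemispheres of trained mice, 3 of the 9 genes were called in motor cortex interneurons, all higher on the contralateral side, where 0.101% of 12811 genes were called (0.0937% higher and 0.00781% lower). Contralateral Sst was at 3031 and 3220 CPM in late and 3730 and 2774 CPM in early pools. The ipsilateral values of the same pools were 2004, 2424, 2437 and 3058 CPM, so that the contralateral side was higher in 3 of 4 pools. The log2 difference was 0.38 (SE 0.06, edgeR adjusted p 1.07e-05, pool as block), and the 4 pool differences were 0.37 ± 0.35 (SD). Pvalb differed by 0.37 (SE 0.08, adjusted p 0.0159), but the contralateral side was higher in only 2 of 4 pools, with differences of -0.26 to 0.80. Cck differed by 0.22 (SE 0.05, adjusted p 0.0400), and the contralateral side was higher in 4 of 4 pools, by 0.01 to 0.50.

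These 3 calls rest on a fitted error smaller than the spread between pools. DESeq2 called none of them (0.38 for Sst, SE 0.18, adjusted p 1.00), limma on cell means called Sst alone (adjusted p 0.00517), and without the pool as a block none was called. With doublets kept, Pvalb (adjusted p 0.0738) and Cck (adjusted p 0.308) were no longer called by edgeR. Sst was called with each of the 4 pools left out in turn (0.30 to 0.56). Without late replicate 1, Pvalb was at 0.08 (adjusted p 0.996) and Cck at 0.11 (adjusted p 0.987). Cck was also not called without early replicate 2 (0.24, edgeR adjusted p 0.104) or late replicate 2 (0.22, adjusted p 0.184), and so was called in 1 of the 4 fits. In the control pools, left minus right was -1.07 and -0.35 for Sst, -1.65 and 0.56 for Pvalb, and -1.62 and 0.27 for Cck. The first of each rests on the library with 25 interneurons. The second lay within the range of sizes seen in trained pools, which reached 0.61 for Sst, 0.80 for Pvalb and 0.50 for Cck. In control replicate 2, 93.3% of right and 0.0428% of left cells had an Xist UMI, so hemisphere and sex of the mouse cannot be told apart in the second value.

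The level and the number of carrier cells can be separated in part for Sst and Cck, and the split is not given here for Pvalb. In the cluster led by Tac1, larger than that of the Nos1 and Chodl cells, Sst CPM had no common direction between hemispheres. It differed by 0.24 and -0.17 in the late pools and 0.19 and -0.33 in the early pools. In the remaining interneurons, which include the Nos1 and Chodl cells with the highest Sst, Sst was higher contralaterally in all 4 pools. It was at 1490 against 955 and 2313 against 1028 CPM in late pools and at 1388 against 1114 and 1682 against 1606 CPM in early pools. The Nos1 and Chodl cells made up 4.13% of contralateral against 2.04% of ipsilateral interneurons, and 4.13% against 2.86%, in late pools. In early pools they made up 1.89% against 2.27% and 3.94% against 3.32%. The part of these shares in the Sst difference was not tested. The cells of the Tac1 cluster made up 21.2% and 14.0% of contralateral interneurons in late pools and 16.0% and 17.6% in early pools, against 16.9%, 15.2%, 11.4% and 16.4% ipsilaterally. Within the Tac2 cluster, Cck CPM was higher contralaterally in all 4 pools, by 0.48 and 0.18 (late) and 0.28 and 0.22 (early). Most motor cortex Cck lay in glutamatergic neurons, and their 10 markers summed over interneurons to 345 against 242 and 238 against 221 CPM in late pools and 289 against 357 and 262 against 246 CPM in early pools, higher contralaterally in 3 of 4. Their part in the Cck difference was not tested. The other members did not pass: Npy differed by 0.17 (adjusted p 0.259), Cort by 0.23 (adjusted p 0.823), Calb1 by 0.23 (adjusted p 0.890), Crh by -0.10, Calb2 by -0.12 and Vip by -0.02 (edgeR). Of the listed genes, Tac1, substance P, was called (0.58, SE 0.09, adjusted p 1.23e-05; higher in 4 of 4 pools) and Crhbp (0.28, SE 0.06, adjusted p 0.0241). Neither was called by DESeq2 or without the pool as a block, since those fits called 0 genes in all.

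In striatal interneurons, Vip was called higher contralaterally, where 0.0371% of 10783 genes were called. Contralateral Vip was at 29.0 and 95.9 CPM in late and 139 and 215 CPM in early pools, and ipsilateral at 2.23, 0, 0 and 16.2 CPM. No ipsilateral library reached the lowest contralateral one. The untrained control pool with both hemispheres, replicate 2, also differed between sides, with 703 Vip UMIs (494 CPM) on the right, 701 of them in 3 cells, and 0 on the left. The fitted difference was 4.47 (SE 0.26, edgeR adjusted p 1.32e-13), on 489 UMIs in 618 contralateral and 35 UMIs in 781 ipsilateral interneurons. Since 2 of 4 ipsilateral libraries had no Vip UMI, its size is uncertain: it was 6.64 without early replicate 2, 4.10 to 4.55 without each of the other 3 pools, and 6.22 (SE 1.46) by DESeq2. Cells with at least 10 UMIs numbered 6 contralaterally and 1 ipsilaterally. DESeq2 (adjusted p 0.511) and limma on cell means (adjusted p 0.205) did not call it. The hemisphere term differed between regions for Vip by 4.50 (SE 0.30, adjusted p 4.16e-14) in a fit that called 0.0155% of genes. Tac2, in the same comparison, was higher contralaterally in striatum (2.03, SE 0.30, adjusted p 5.09e-04; 8 to 65 against 5 to 22 UMIs in a library), and so was Tac1 (0.76, SE 0.13, adjusted p 0.00528). Each was higher in 3 of 4 pools. Both calls were lost by DESeq2 and by limma, which called 0 genes in all, and without the pool as a block, where 1 gene, Vip, was called.

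The other 8 members did not pass between striatal hemispheres. Calb2 was higher contralaterally in 4 of 4 pools, by 0.17 to 0.74, with a fitted difference of 0.49 (SE 0.16, edgeR adjusted p 1.00). Pvalb was at -0.50 (SE 0.13, adjusted p 0.522) and higher contralaterally in 1 of 4 pools. Crh was at 1.34 (SE 0.41; 3 of 4 pools higher), Cort at 0.82 (SE 0.35; 2 of 4) and Cck at 0.99 (SE 0.36; 2 of 4), on few UMIs. Sst (0.08), Npy (-0.01) and Calb1 (-0.10) differed least.

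**Figure D4:**
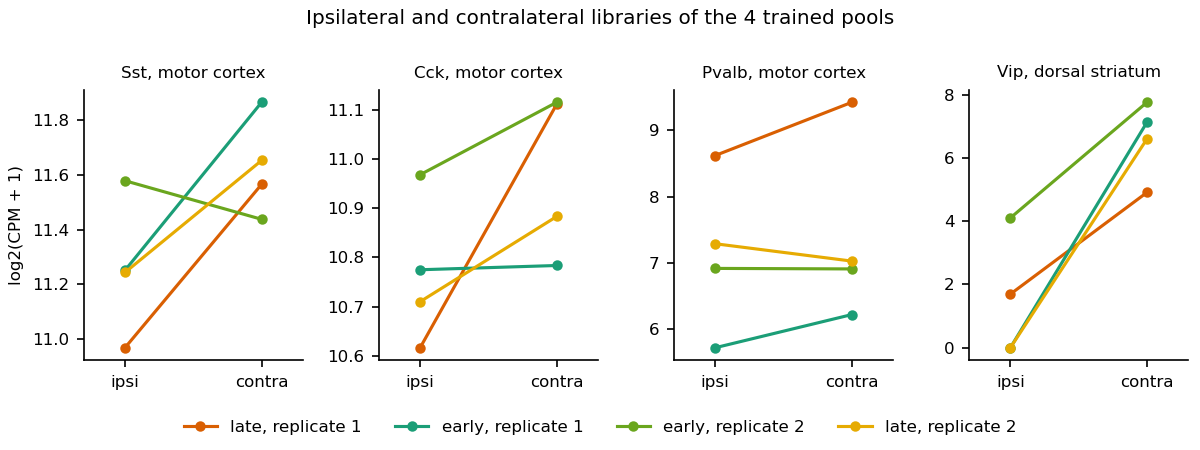
Level, as log2(CPM + 1), in interneuron-like cells of the ipsilateral and the contralateral library of each of the 4 trained pools, joined by a line per pool, for the 4 genes called between hemispheres; axes do not start at 0 and differ between panels. Sst rises in 3 of 4 pools, Cck in 4 of 4, Pvalb differs by -0.26 to 0.80, and striatal Vip rises in 4 of 4 from 0 to 16.2 CPM on the ipsilateral side.

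Barcodes with 500 to 999 UMIs, too few to be kept as cells, hold RNA outside the kept cells. Whether a count there comes from free RNA or from a shallow cell was not tested. There were 9537 in motor cortex (median 746 UMIs) and 12495 in striatum (median 732 UMIs). For 8 of the 9 genes the pooled level there was 0.0278 to 0.472 times that of kept cells. Vip was at 45.1 CPM in such barcodes of motor cortex against 588 CPM in kept cells, Sst at 67.0 against 393 CPM, Npy at 81.3 against 904 CPM and Cck at 256 against 1746 CPM. In striatum Sst was at 154 against 1469 CPM, Npy at 82.5 against 836 CPM, and Vip at 0.217 against 7.81 CPM, from 2 UMIs in all. Of the 21 motor cortex barcodes with at least 3 Vip UMIs, 100% had a UMI of an interneuron marker, against 19.3% of the others. For Sst these shares were 82.6% against 19.3% in motor cortex and 70.8% against 41.9% in striatum. Of 160 motor cortex barcodes with at least 3 Cck UMIs, 16.9% had an interneuron marker, against 19.5% of the others, and 90% a glutamatergic one. For Calb1, 0% of 4 such barcodes had an interneuron marker in motor cortex and 22.2% of 9 in striatum.

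Calb2 was the exception, with 169 CPM in low barcodes of motor cortex against 56.5 CPM in kept cells (2.98 times), and 125 against 20.6 CPM in striatum (6.06 times). Most of it lay in few barcodes: 98 in motor cortex and 72 in striatum with at least 3 UMIs held 88.4% and 87.6% of its UMIs. Of these, 77.6% and 77.8% had a UMI of a neuroblast or progenitor marker, against 12.9% and 39.8% of the other low barcodes. An interneuron marker was present in 90.8% and 90.3%, against 18.8% and 41.6%. Summed over these barcodes, interneuron markers were at 3413 and 3451 CPM, and neuroblast or progenitor markers at 2311 and 2983 CPM. The 2 lists do not part the classes fully, since young GABAergic neurons also express the interneuron markers Dlx1 and Dlx6os1. Which cells these barcodes came from was not tested.

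The genes differed in how their counts lay over low barcodes. Single UMIs made up 71.7% to 72.7% of Calb1 there and 8.64% to 8.89% of Calb2. For Pvalb they made up 54.5% in motor cortex and 92% of only 25 UMIs in striatum. They made up 43.2% to 53.4% of Cck, 50.7% to 55.4% of Npy and 39.5% to 46.6% of Sst, which overlapped, and 29.5% of Vip in motor cortex. In motor cortex, barcodes with at least 3 UMIs held 68.0% of the Vip, 56.7% of the Sst and 43.8% of the Npy UMIs. They held 38.15% of the Cck and 8.67% of the Calb1 UMIs. Microglia-like cells gave a second measure of background. Before thinning, 9.22% of 10180 such cells in motor cortex had a Cck UMI and 3.23% an Npy UMI, and in striatum 7.11% of 4992 had an Sst UMI and 4.43% an Npy UMI. At 3 UMIs or more these shares were 0.226%, 0.0196%, 0.0801% and 0.0401%.

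**Figure D5:**
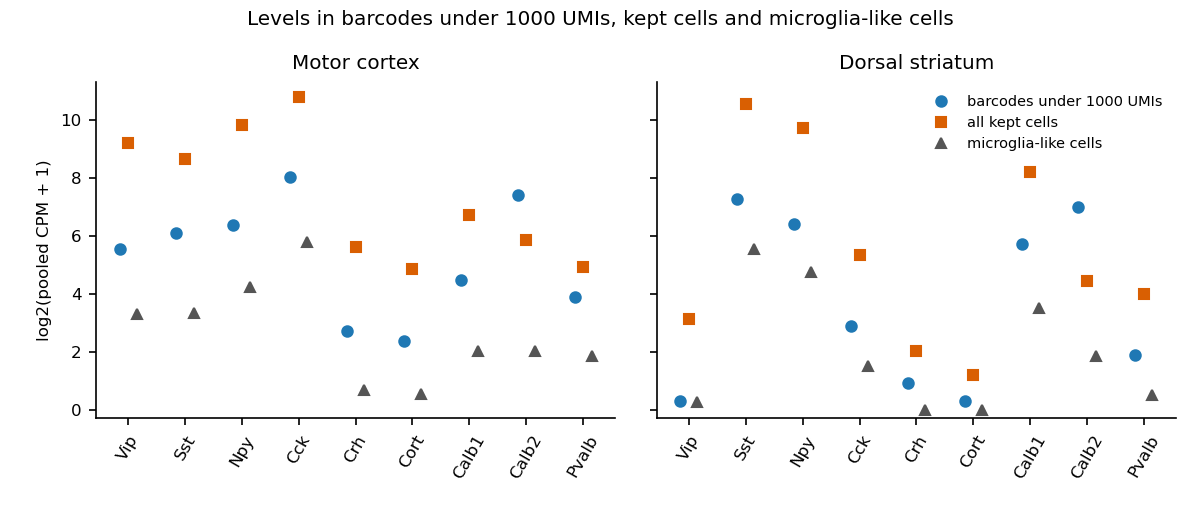
Pooled level of each gene, as log2(CPM + 1), in barcodes with 500 to 999 UMIs, in all kept cells and in microglia-like cells of each region. Calb2 is the only gene higher in low barcodes than in kept cells (169 against 56.5 CPM in motor cortex and 125 against 20.6 CPM in striatum).

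Across 77 clusters of both regions, the genes most like each member were named by Pearson's r of log2(CPM + 1), as a description over clusters that share libraries. Vip and Crh were each other's nearest gene (0.84), followed by Tac2 (0.82 with Vip, 0.80 with Crh), then by Grpr for Vip (0.72) and Mybpc1 for Crh (0.74). Sst was most like the galanin receptor gene Galr1 (0.77), the gene model Gm13429 (0.77) and Crhbp (0.75). Npy was most like Cort (0.79), Pnoc (0.77) and Oxtr, the oxytocin receptor gene (0.74), and Cort most like Oxtr (0.79), Npy (0.79) and Lrrc38 (0.75). Cck was most like Slc17a7, the vesicular glutamate transporter of cortical projection neurons (0.85), followed by Ovol2 and Necab3 (0.82 each). Calb1 was most like Cpne5 (0.81), Rnf207 (0.77) and Actn2 (0.77). Calb2 was most like the potassium channel-interacting protein gene Kcnip1 (0.76), Aqp5 (0.74) and the gene model Gm43847 (0.73). Pvalb was most like Sertm1, the gene model Gm31218 and Cox6a2 (0.60 each), the lowest of these values.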

How the data were processed

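Single cells of papain-dissociated tissue were measured with 10x Genomics 3′ libraries, version 2 or 3 of the kit, which the labels do not tie to libraries. The authors deposited raw UMI counts per gene and barcode for each library. Cell Ranger 3.1.0 and the builds GRCm38 and mm10 are named in the submitters' processing notes, while the file headers give software version 3.0.2. Gene positions came from GENCODE M21, which held 54079 of the 54235 feature IDs.

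Barcodes passed with 500 or more genes, 1000 or more UMIs and a mitochondrial share of 20% or less (103715 of 127901). Scrublet doublet scores removed 5103, leaving 98612. Clusters were made in each region with scanpy 1.11.5 and leidenalg 0.10.2, without the 9 genes, and named from marker lists. Libraries fell into 2 classes by the barcodes they share, taken as the kit class: class A is replicate 1 of control and late in both regions.

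UMIs were summed over interneurons per pool and tested with edgeR 4.0.16 (quasi-likelihood, R 4.3.3; Benjamini-Hochberg adjustment over all genes tested, threshold 0.05), with stage and kit class as terms. Hemispheres were tested per library with the pool as block, since both libraries of a pool come from the same mice. Region was tested over 12 pools. Exact permutation tests over pools were used for shares of cells. The pools are separate animals. The error of a fit is estimated with all genes and can be smaller than the spread between the pools of 1 gene. The SE given for edgeR is the absolute log2 difference divided by the square root of the F statistic. It is not the same quantity as the SE of DESeq2. Intervals and limits cover counting error only. Alternatives included DESeq2 1.42.0, limma 3.58.1, other cell filters, doublets kept and single pools left out. On simulated data, 68.5% and 75% of 200 genes changed 2-fold were recovered in late against control of motor cortex and striatal interneurons. There, 6 and 14 unchanged genes were also called. The changed genes were drawn from those above a minimum mean level and no kit effect was simulated. The rates thus do not cover genes of lower level.

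The rule was to name all 9 genes in every comparison. The differences of the reported fit are not printed for late against early, nor for Pvalb by stage in motor cortex. In classes other than interneurons the text gives the genes with their largest share of UMIs there. From 3 lists (receptors, peptide processing, other peptides) it names at most 3 called genes per list and comparison and those with the highest level. For likeness it names the 3 nearest genes by Pearson's r over clusters of at least 30 cells. Members and lists were chosen with earlier results of these data known. One library (right hemisphere of striatal control replicate 1) was not analysed here.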

Additional observations from a re-analysis of the deposited data

Results flagged for a closer look

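In groups of 4 libraries of one region and stage, a library was marked when its distance from the nearest other exceeded 0.829 of the whole range of the group, which chance gives in about 1 in 20 groups of independent values. The 4 libraries are 2 hemispheres from each of 2 pools, so they are not independent and that rate is only a guide. This was the case for 2 of 45 groups. Crh in the ipsilateral library of motor cortex late replicate 1 was at 8.85 on the log2(CPM + 1) scale (462 CPM, 1174 UMIs), against 8.33 to 8.38 in the other 3 late libraries. Cck in the left library of motor cortex control replicate 1 was at 8.90 (478 CPM, 144 UMIs in 25 interneurons), against 10.27 to 10.54 in the other 3 control libraries.

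For 4 results the effect in striatal interneurons differed from that in motor cortex interneurons by an interaction term (edgeR quasi-likelihood test, adjusted over all genes). For Vip the log2 effect in striatum minus that in motor cortex was -2.22 in early against control (SE 0.29, adjusted p 0.0204), -3.44 in late against control (SE 0.31, adjusted p 1.54e-04) and 4.50 in contralateral against ipsilateral (SE 0.30, adjusted p 4.16e-14). All 3 rest on the few Vip-rich cells of the striatum, 12 in 7 of 11 libraries. For Tac2 the hemisphere effects differed by 2.22 (SE 0.33, adjusted p 3.33e-04).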

How the results depend on the processing

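Calls on the 9 genes were counted under each alternative. For stage in motor cortex interneurons there were 0 calls (0 over all genes), against 3 with no filter on low counts (121 over all genes) and 0 to 6 with 1 pool left out (1 to 452). For stage in striatal interneurons there were 2 (24 over all genes), against 5 with no filter (222), 1 by DESeq2, 0 by limma on cell means, 0 without the kit covariate, 0 with the replicate block in place of kit class, 0 with contralateral and left libraries only, 6 with ipsilateral and right libraries only (148), and 4 to 6 with 1 pool left out (105 to 370). In projection neurons and neuroblasts there were 0 (8 over all genes), against 7 with no filter (1684) and 0 to 7 with 1 pool left out (0 to 1279). For hemispheres in motor cortex there were 3 (13 over all genes), against 0 without the replicate block (0), 0 by DESeq2 (0), 1 by limma (2), 1 with doublets kept (14) and 1 to 4 with 1 pool left out (3 to 21). For hemispheres in striatum there was 1 (4 over all genes), against 3 with no filter (11), 0 by DESeq2 (0) and 0 by limma (0), and 1 to 2 with 1 pool left out (1 to 10). For stage in striatal interneurons, DESeq2 made 14 calls over all genes, limma 8, and the fit with contralateral and left libraries only 54. The fits there without the kit covariate and with the replicate block made 0 calls over all genes. The 7 calls between regions (4366 over all genes) remained in the alternatives run (2748 to 5211), with 9 by limma (3608). The 6 calls on shares of cells were 9 without thinning, 7 with at least 2 UMIs required and 7 in kit class B alone, and 0 in kit class A alone, where 2 against 2 pools cannot pass. The cause of these changes was not tested.

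Where a value called in either fit was involved, signs changed as follows. With contralateral and left libraries only, striatal Vip was at 2.35 in early and 0.52 in late against control. Striatal Cck in early against control was at -2.35 with ipsilateral and right libraries only. With 1 pool left out it ranged from -3.79 to 10.42 there, from -2.41 to 8.04 in late against control and from -2.44 to 8.01 in late against early. It rests on 442 UMIs in 26 cells, and no direction is given for it. Between regions, Calb1 was at 0.11 by limma on cell means. The Npy share was -5.77 percentage points in striatum minus motor cortex without thinning. Of 2045 alternative values for single genes, 1929 kept their side of the threshold with no sign change of a called value. Of these, 211 had the other sign, all called neither in the reported fit nor in the alternative. Values called in neither fit count as kept, so the number kept says little about the called values. Of the remaining values, 78 were called only in the alternative and 28 lost their call, 14 of them between motor cortex hemispheres. In 10 the sign changed where either fit made a call.

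The replicate numbers follow accession order and pair no samples across stages. As a block in place of kit class they gave 0 calls on the 9 genes in either region. Those fits made 2 calls over all genes in motor cortex and 0 in striatum. The striatal values of Vip, Cck, Crh and Cort rest on few UMIs, with 1458, 442, 158 and 187 in all interneurons.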

Other observations

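Calb1 and Pvalb were also found in clusters outside neurons. In striatum, an unnamed cluster of 956 cells led by Tmem212, Ccdc153 and Foxj1, with all 5 ependymal markers, had 732.5 CPM of Calb1 and 48.4 CPM of Pvalb, and 76.2% of its cells had a Calb1 UMI. Unnamed clusters led by Enpp6, a gene of newly formed oligodendrocytes, had 34.1 CPM of Pvalb in motor cortex (708 cells, 11.7% with a UMI) and 28.4 CPM in striatum (618 cells, 9.06%). Microglia-like cells had a Pvalb UMI in 0.481% and 0.0801%, at median depths of 1821 and 1823.5 UMIs against 3159 and 3397 in the Enpp6 clusters.

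Npy was seen in oligodendrocyte precursor-like cells of both regions, at 95.4 CPM in motor cortex (15.1% of 5717 cells with a UMI) and 84.2 CPM in striatum (15.3% of 2739), against 3.23% and 4.43% of microglia-like cells. After thinning to 1000 UMIs these shares were 7.98% and 7.81%, against 1.63% and 2.64%. A striatal interneuron subcluster of 17 cells led by C1qc and Ccl4, genes of microglia, had 25930 CPM of Sst. In 182 striatal oligodendrocyte-like cells Sst was at 979 CPM, from 582 UMIs, while 1.10% of them held at least 3 Sst UMIs.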
